A study of Mus musculus with 24 samples.

Results

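Serial cloning was examined in the brain by setting 20th-generation clones against controls conceived by injection of a sperm, over 8 of the 24 arrays of the series. The G20 group held 4 arrays, labelled as clones of cumulus cells, the somatic cells around an oocyte, after 20 generations in which clones supplied the nuclei for the next clones. The NC group held 4 arrays of control animals made by ICSI, the intracytoplasmic injection of a sperm into an oocyte. Both groups were brains of neonatal female mice, and the labels give all of them the cross (C57BL/6 x DBA2) x 129/Sv as genetic background. In such a cross each ICSI animal carries its own mixture of C57BL/6 and DBA2 alleles, while clones of a line share theirs, so that strain alleles and cloning cannot be told apart here. All 4 G20 arrays carry the same source name, so only the numbers in their titles separate them, and the p-values cover no more than the spread from array to array, which may be technical. The remaining arrays of the series, first clones in brain and the 3 groups in liver, enter here only where liver or the 12-array fit is named.

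Imprinted genes are read mainly from 1 parental copy, according to marks such as DNA methylation that were set in the egg or the sperm. A cumulus cell already carries both kinds of marks, and they are not erased and set anew when its nucleus is put into an oocyte, so each further generation inherits the same pair of marked chromosomes. Several imprinted genes in mouse lie inside introns of other genes and take part in where the transcripts of their host end, which makes host and guest useful to read together.

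Each array gave the scanner's signal on the log2 scale minus the 75th percentile of its array, and levels below are on that scale, where 1 unit is a 2-fold step. Probes well above background made up 68.1% to 70.6% of the G20 arrays and 68.2% to 70.4% of the NC arrays, and pairs of arrays correlated across probes at 0.9891 to 0.9939 within G20 and 0.9907 to 0.9947 within NC. The arrays held brain RNA by the 15 of 15 general neuron markers that were measured, with a median level of 3.41 to 3.77 in G20 and 3.51 to 3.66 in NC. The G20 arrays shared 1 slide and the NC arrays another, so a slide effect cannot be told apart from the groups. G20 array 2 stood apart in markers of the choroid plexus, the tissue that makes cerebrospinal fluid, with a list median of −2.74 against −0.72 to −0.42 on the other G20 arrays and −0.78 to −0.62 in NC. Its median of 1.82 for glutamatergic neurons of the cortex was also below the 2.48 to 2.52 of the other G20 arrays and the 2.42 to 2.63 of NC. G20 array 1 stood apart at several imprinted genes, among them those of 2 regions that are described below.

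Of 18220 genes tested, 103 were higher and 53 lower in G20 brain at a limma adjusted p under 0.05, which is 0.856% in either direction, 0.565% higher and 0.291% lower. The median difference of all genes was 0.03, with quartiles of −0.09 and 0.16, and 34 higher and 20 lower calls reached 2-fold. For 39 higher and 24 lower genes the call held when each of the 8 arrays was left out in turn. The number of calls was 80 without G20 array 1, 103 without G20 array 2, 73 without G20 array 4, 96 without NC array 1 and 236 without NC array 3. A different background correction (normexp) left 10 calls, all among the 156, and the sign of the difference was the same for 140 genes. With such counts the descriptions below rest on genes whose arrays can be seen 1 by 1.

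Paternally expressed imprinted genes had the most called members of the lists used here. Of 42 genes listed as paternally expressed, 32 were measured, 7 rose and 0 fell (among all genes 0.565% rose and 0.291% fell). The median difference over the 32 was 0.29, against 0.03 over all genes, and 26 of the 32 differences were positive. In 14 members every G20 array lay above every NC array, and in 0 below, where 7.46% and 4.7% of all genes did so. The list names Trappc9, 1 of the 7 called genes, which is read mainly from the maternal copy in mouse brain. It also names Mcts1, an X-linked relative of Mcts2 that is not imprinted, so the list is wider than its title.

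Plagl1, a zinc-finger transcription factor that regulates a network of growth genes, had levels of 4.48, 4.57, 4.47 and 4.60 on the G20 arrays, against 3.62, 3.43, 3.48 and 3.63 on the NC arrays. The groups lay far apart, and the rise was 0.99 ± 0.07 (SE, n = 4 per group, limma adjusted p = 0.000495). A further Plagl1 probe differed by 1.10 ± 0.09 (limma adjusted p over 27720 probes = 0.000435). Zrsr1, an intronless gene for a splicing factor that lies inside Commd1, had 2.26, 2.50, 2.36 and 2.33 in G20, against 1.30, 1.33, 1.46 and 1.27 in NC. It rose by 1.02 ± 0.08 (limma adjusted p = 0.000495), again with no overlap of the groups. Mcts2, an intronless gene inside H13 that encodes a translation factor related to Mcts1, had 1.16, 1.65, 1.44 and 1.23 in G20 and 0.49, 0.37, 0.41 and 0.62 in NC. Its rise of 0.90 ± 0.11 (limma adjusted p = 0.00862) exceeded the spread within both groups. Nap1l5, an intronless relative of the nucleosome assembly proteins that lies inside Herc3, had 3.50, 3.90, 3.12 and 3.40 in G20 and 2.52, 2.71, 2.68 and 2.50 in NC. Its rise of 0.88 ± 0.15 (limma adjusted p = 0.0384) was called in 2 of the 8 fits that left out an array, against 8 of 8 for Plagl1, Zrsr1 and Mcts2.

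These 4 genes were picked from those called higher, so their shared direction follows from that choice. In mouse the stretch around the start of each is methylated on the maternal copy, which silences it there. Their promoters are printed to show that sequence, 250 bases before to 50 after the start as RefSeq lists it on GRCm38.p6. Capitals mark TGCCGC or its reverse complement GCGGCA, the 6-letter core bound when methylated by ZFP57, a zinc-finger protein that preserves imprints after fertilisation. Plagl1 lies at chr10:13090582-13090881 and Zrsr1 at chr11:22971755-22972054, both on the plus strand. Mcts2 lies at chr2:152686898-152687197 on the plus strand and Nap1l5 at chr6:58907077-58907376 on the minus strand.
Plagl1: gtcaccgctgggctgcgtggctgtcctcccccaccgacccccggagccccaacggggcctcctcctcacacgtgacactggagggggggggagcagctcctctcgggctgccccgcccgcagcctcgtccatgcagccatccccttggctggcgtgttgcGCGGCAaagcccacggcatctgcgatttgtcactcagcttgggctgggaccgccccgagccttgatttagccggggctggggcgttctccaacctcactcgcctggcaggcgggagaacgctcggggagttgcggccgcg
Zrsr1: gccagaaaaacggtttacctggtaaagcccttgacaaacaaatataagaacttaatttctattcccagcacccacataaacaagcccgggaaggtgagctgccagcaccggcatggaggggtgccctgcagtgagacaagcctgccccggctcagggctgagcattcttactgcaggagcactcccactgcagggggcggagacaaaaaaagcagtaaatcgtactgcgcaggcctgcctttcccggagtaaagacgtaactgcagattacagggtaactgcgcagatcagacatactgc
Mcts2: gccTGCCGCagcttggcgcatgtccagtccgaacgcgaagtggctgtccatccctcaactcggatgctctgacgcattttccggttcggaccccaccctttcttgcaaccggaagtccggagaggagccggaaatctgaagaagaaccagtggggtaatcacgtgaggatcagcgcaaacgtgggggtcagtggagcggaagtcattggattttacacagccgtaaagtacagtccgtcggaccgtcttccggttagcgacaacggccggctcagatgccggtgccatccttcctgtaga
Nap1l5: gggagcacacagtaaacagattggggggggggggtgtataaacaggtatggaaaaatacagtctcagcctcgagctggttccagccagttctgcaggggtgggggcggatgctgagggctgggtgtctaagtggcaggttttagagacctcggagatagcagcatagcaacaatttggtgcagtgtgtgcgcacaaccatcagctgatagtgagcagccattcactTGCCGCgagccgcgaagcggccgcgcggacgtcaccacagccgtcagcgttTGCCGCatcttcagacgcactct

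Counted on both strands, the 6-letter core was found 1 time in the Plagl1 window, 0 times in that of Zrsr1, 1 time in that of Mcts2 and 2 times in that of Nap1l5. It was present in 11.6% of 32851 promoters of the same length. CpG dinucleotides, the sites that carry the methylation, numbered 26 for Plagl1, 10 for Zrsr1, 25 for Mcts2 and 17 for Nap1l5, against a median of 7. The windows of H13 and Blcap, which were called lower, held 21 and 17 CpG and the core 0 times, so CpG number did not go with the direction. A match is a description of these letters, methylation was not measured on these arrays, and the absence of the core in the Zrsr1 window says only that it is not in those 300 bases.

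Impact, a regulator of translation that restrains an eIF2alpha kinase, had 3.58, 3.83, 3.50 and 3.16 in G20 and 2.53, 2.78, 2.82 and 2.85 in NC. It rose by 0.77 ± 0.14 (limma adjusted p = 0.0471), with groups that did not overlap, but was called in 1 of the 8 fits without an array. Inpp5f, a phosphoinositide phosphatase with a brain transcript read from the paternal copy, had 4.96, 5.05, 4.95 and 5.05 in G20 and 4.72, 4.63, 4.62 and 4.67 in NC. Its rise of 0.35 ± 0.06 (limma adjusted p = 0.0476) was called in 0 of the 8 fits without an array.

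The other 25 measured members were not called. Nnat, a small membrane protein of developing neurons, had 5.17 to 5.36 in G20 and 4.93 to 5.01 in NC, a difference of 0.32 (limma adjusted p = 0.077). Slc38a4, an amino acid transporter, differed by 0.61 (adjusted p = 0.0923 in limma) and Peg12, an inhibitor of GSK3 of the Frat family, by 0.42 (adjusted p = 0.081 in limma). Mest differed by 0.19, the notch-like ligand Dlk1 by 0.07, Peg3 by −0.07 and the growth factor Igf2 by −0.17. The thyroid hormone deiodinase Dio3 differed by −0.17, and Zdbf2, with −1.82, −1.60, −1.05 and −0.87 in G20 against −0.76, −0.43, −0.53 and −0.92 in NC, by −0.68. Zdbf2 was thus the member with the lowest difference, and its groups overlapped. The list's count of higher calls was 4 without G20 array 1 and 4 without any 1 of the NC arrays, 1 after normexp (Plagl1), and 4 without the filter on dim probes.

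**Figure D1:**
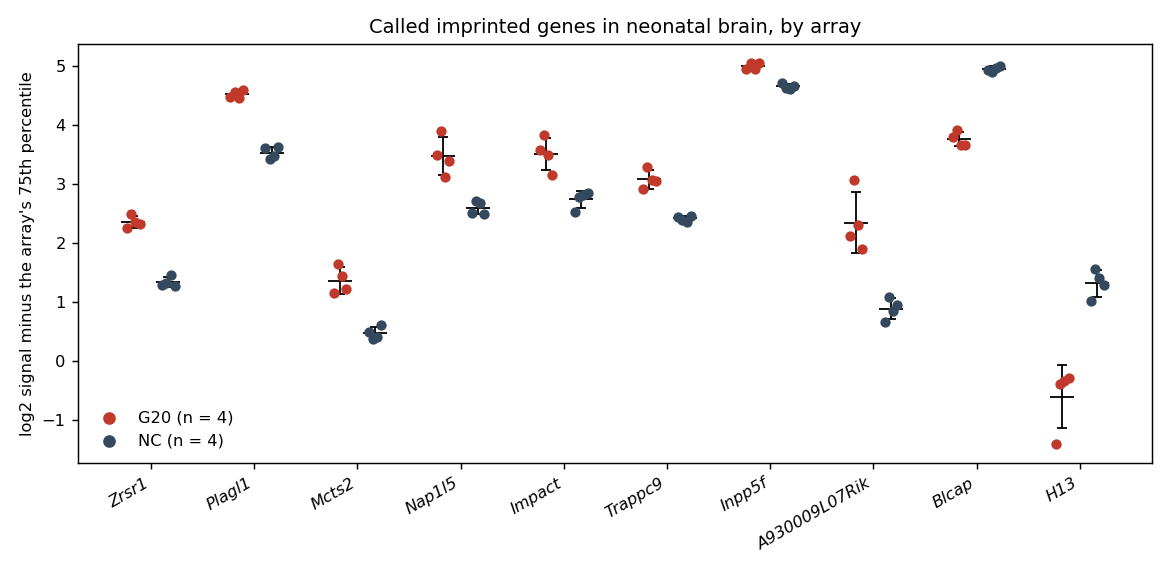
Levels of the 10 called genes of the imprinted lists on each array (log2 signal minus the array's 75th percentile), G20 in red left of NC in blue, with the mean as a line and bars of 1 SD (n = 4 per group). The G20 points lie above the NC points for 8 genes and below them for Blcap and H13, with no overlap in any of the 10.

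Among 44 genes listed as maternally expressed, 36 were measured, 1 rose and 2 fell (among all genes 0.565% rose and 0.291% fell). The median difference was 0.04. The genes that fell were H13 and Blcap, the hosts of the paternally expressed Mcts2 and Nnat. Blcap, an apoptosis-related gene, had 3.80, 3.93, 3.67 and 3.67 in G20 and 4.94, 4.91, 4.98 and 5.01 in NC. It fell by 1.19 ± 0.08 (limma adjusted p = 0.000327), one of the 10 calls after normexp. H13, which encodes a signal peptide peptidase, had −1.40, −0.39, −0.33 and −0.29 in G20 and 1.02, 1.56, 1.42 and 1.29 in NC. It fell by 1.93 ± 0.24 (limma adjusted p = 0.00851), with G20 array 1 the lowest of all 8 arrays. The non-coding RNAs Meg3 and H19 differed by 0.25 and −0.17, the receptor Igf2r by 0.14 and the adaptor Grb10 by 0.05, none of them called.

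Probes at different places in a host gene did not all move the same way. In the following the positions are those of mm8 in the array files, adjusted p-values run over all 27720 probes, and the probes of Herc3, Nnat and Commd1 were picked after their values were seen. In mouse, H13 transcripts from the paternal copy end early, near Mcts2, and those from the maternal copy run on to the end of the gene. The H13 probe at chr2:152377929-152377988, which lies before Mcts2 (chr2:152379209-152379268), had 0.98, 0.77, 0.34 and 0.42 in G20 and −0.20, −0.55, −0.82 and −0.27 in NC. It was higher by 1.09 ± 0.18 (limma adjusted p = 0.0303), like Mcts2 itself. Behind Mcts2, the H13 probe spanning chr2:152391653-152396065 had −3.22, −2.94, −3.11 and −3.08 in G20 and −1.0, −0.79, −0.91 and −0.80 in NC, a difference of −2.21 ± 0.09 (limma adjusted p = 8.29e-06). The last one, at chr2:152398054-152398113, is the H13 probe given above. H13 was thus higher before Mcts2 and lower behind it.

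Blcap was split around Nnat in the same way. Blcap is read on the minus strand and Nnat lies in its intron, at chr2:157253683-157253742. The Blcap probe upstream of Nnat, at chr2:157255796-157255855, had −1.60, −1.71, −1.92 and −1.87 in G20 and −2.67, −3.12, −2.90 and −2.96 in NC. It was higher by 1.14 ± 0.11 (limma adjusted p = 0.00215). Downstream, the probe at chr2:157249223-157249282 had −2.50, −2.49, −2.60 and −2.54 in G20 and −1.11, −1.27, −1.08 and −0.96 in NC, a difference of −1.43 ± 0.08 (limma adjusted p = 0.000114). The probe at chr2:157247840-157247899, used above, fell by 1.19.

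Herc3, a ubiquitin ligase gene that holds Nap1l5 at chr6:58834971-58835030, also had probes on either side of its guest. Its probe before Nap1l5, at chr6:58833258-58833317, had −1.11, −0.49, −1.53 and −0.94 in G20 and −2.12, −2.14, −2.12 and −2.01 in NC, a difference of 1.08 ± 0.19 (limma adjusted p = 0.0393). Its probe behind Nap1l5 had 2.07, 2.21, 2.20 and 1.80 in G20 and 2.14, 2.22, 2.21 and 2.09 in NC, a difference of −0.09 (limma adjusted p = 0.636). Commd1, a gene of copper handling that holds Zrsr1 at chr11:22874611-22874670, had negative differences at its 3 probes, past the threshold at 2. They were −0.38 (limma adjusted p = 0.116), −0.58 (adjusted p = 0.0071) and −0.63 (adjusted p = 0.00918). At the most distal of them, chr11:22882184-22882243, G20 had −2.23, −2.03, −2.22 and −2.15 and NC −1.48, −1.64, −1.59 and −1.42.

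**Figure D2:**
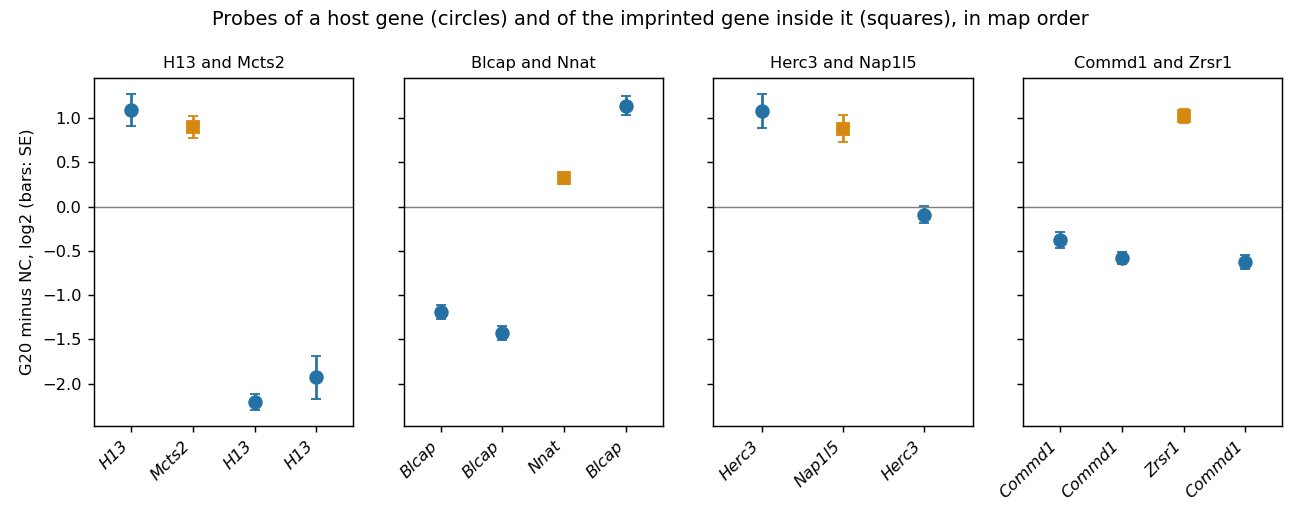
Difference between G20 and NC brain (log2, bars 1 SE, n = 4 per group) at each measured probe of 4 host genes (circles) and of the imprinted gene inside each (squares), in the order of their positions. Guest genes are all above 0, and the H13 and Blcap probes lie near 1.09 and 1.14 on one side of the guest and between −2.21 and −1.19 on the other.

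Another imprinted domain, on chromosome 15, held 3 called genes among the 5 tested between chr15:72334312 and chr15:72926020 (mm8), all higher. A930009L07Rik, an older name of Kcnk9, a potassium leak channel read from the maternal copy in brain, had 2.12, 3.08, 2.31 and 1.90 in G20 and 0.67, 1.09, 0.85 and 0.96 in NC. It rose by 1.46 ± 0.23 (limma adjusted p = 0.0257, called in 4 of the 8 fits without an array). Trappc9, a subunit of a vesicle-tethering complex, had 2.92, 3.30, 3.07 and 3.05 in G20 and 2.45, 2.40, 2.37 and 2.47 in NC, and rose by 0.67 ± 0.09 (limma adjusted p = 0.00995). A further probe filed under the same name at chr15:72626794-72626853 was not well above background on any G20 array (−7.40, −7.47, −7.77 and −7.30) and had −4.79, −4.94, −4.88 and −4.80 in NC. Against the dimmest measurable level G20 was 4.94-fold lower, and the fitted difference was −2.63 ± 0.11 (limma adjusted p over probes = 8.29e-06). The third probe under that name differed by 1.09 ± 0.25 (limma adjusted p over probes = 0.0992). Because the Trappc9 probes disagree, averaging them turns the difference of the gene to −0.29. The other called gene of the stretch, 2310051F07Rik, had 4.05, 4.19, 3.89 and 3.96 in G20 and 3.50, 3.38, 3.45 and 3.48 in NC. It rose by 0.57 ± 0.08 (limma adjusted p = 0.0145, called in 6 of the 8 fits without an array).

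The Prader-Willi and Angelman domain of chromosome 7 is controlled by an imprinting centre at Snrpn. Its paternal copy is read as protein-coding genes and as a long non-coding transcript, Snhg14, which runs antisense over Ube3a and silences the paternal Ube3a copy in neurons, while Ube3a is read from the maternal copy. Over the 25 measured features from Atp10a to Peg12 the called rises were all of non-coding or uncharacterised transcripts. Between the tested probes of Ube3a and Ndn, 18 features were tested. Of these, 9 rose by 1.5 to 3.92 and 0 fell (among all genes 0.565% rose and 0.291% fell). With only features well above background on all 8 arrays, 7 of 16 were called higher. Neighbouring features may be parts of the same long transcript, so they may not be independent. In every fit without an array 8 of the 9 were called. After normexp these 9 differences were 1.06 to 2.88, and 4 of them were called. The other 9 features were not called. Lowest among them was Ipw at −1.10 (limma adjusted p = 0.262), with −2.75, −3.72, −5.05 and −5.13 in G20 and −2.87, −3.10, −3.23 and −3.06 in NC. AF315352 differed by −0.90, while AK039079 and A230097C02 differed by 0.79 and 0.82.

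A230057D06Rik, listed as a long non-coding RNA, had 0.19, 0.16, −0.03 and 0.07 in G20 and −3.26, −3.53, −3.48 and −3.40 in NC (chr7:61584950-61585009). It rose by 3.52 ± 0.08 (limma adjusted p = 2.56e-07), while another probe of that name differed by 0.59 (limma adjusted p over probes = 0.232). D0Kist2 had −1.64, −0.72, −2.09 and −1.96 in G20 and −5.17, −5.41, −5.80 and −5.70 in NC, a rise of 3.92 ± 0.28 (limma adjusted p = 0.000438). AK030614 rose by 3.16, with −1.74, −1.82, −2.22 and −1.74 in G20 and −5.07, −4.45, −5.20 and −5.43 in NC (limma adjusted p = 0.000327). EG330549 rose by 2.95 and was well above background on 2 of 4 NC arrays. AK045462, with −0.60, −1.17, −0.96 and −1.01 in G20 and −3.79, −3.32, −3.38 and −3.66 in NC, rose by 2.60 (limma adjusted p = 0.000231). No NC array had AK083530 well above background, and against the dimmest measurable level G20 was 4.08-fold higher. Its fitted difference of 2.05 (limma adjusted p = 0.0261) was called in 4 of the 8 fits without an array. After normexp that difference was 1.06 and not called. D7Ertd715e, which the gene table lists as a synonym of Snhg14, had 0.67, 0.66, 0.38 and −0.10 in G20 and −1.10, −1.12, −1.28 and −1.11 in NC, and rose by 1.56 ± 0.16 (limma adjusted p = 0.00316). C230091D08Rik, another synonym of Snhg14 and placed nearer to Ube3a, differed by −0.52 and was not called.

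G20 array 1 departed from the other 7 arrays in the same domain, a pattern chosen after the values were seen and therefore given without a test. It was the highest of the 8 arrays in 19 of the 25 features and the lowest in 4, where it was the highest in 13.2% and the lowest in 10.7% of all genes. These shares are not like for like. Where every G20 array lay above every NC array, the highest had to be a G20 array, and neighbouring features may share transcripts. Ube3a, the ubiquitin ligase lost in Angelman syndrome, had 1.61 on G20 array 1, against 3.15 to 3.41 on the other G20 arrays and 3.16 to 3.20 on the NC arrays. That is 3.1-fold below the mean of the other G20 arrays. The remaining Ube3a probes had 1.22 and −1.01 on this array, against 2.25 to 2.45 and 0.03 to 0.34 on the other G20 arrays and 2.26 to 2.44 and 0.05 to 0.48 in NC. All 3 probes of Ube3a thus gave the array as low, each outside the range of the others.

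The paternally read genes of the domain went the other way on G20 array 1. Snrpn, which encodes a splicing protein, had 5.23 there, against 4.30 to 4.65 on the other G20 arrays and 4.53 to 4.63 in NC. Snurf, read from the same transcript, had 4.17, against 3.24 to 3.42 and 3.36 to 3.42. Ndn, a growth suppressor of neurons, had 4.10 on this array, 3.25 to 3.57 on the other G20 arrays and 3.30 to 3.55 in NC. Magel2, a partner of ubiquitin ligases, had 2.95, against 1.98 to 2.57 and 1.86 to 2.18. Mkrn3, an inhibitor of puberty, had 0.67, against −0.43 to 0.03 and −0.85 to −0.42. The features between Ube3a and AK045462 were lowest on it, C230091D08Rik at −2.34 against −0.62 to −0.41 on the other G20 arrays and −0.52 to −0.42 in NC. On the other 3 G20 arrays Ube3a, Snrpn, Snurf and Ndn had values at or near the NC range, while A230057D06Rik, D0Kist2 and AK030614 were high on all 4 arrays.

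**Figure D3:**
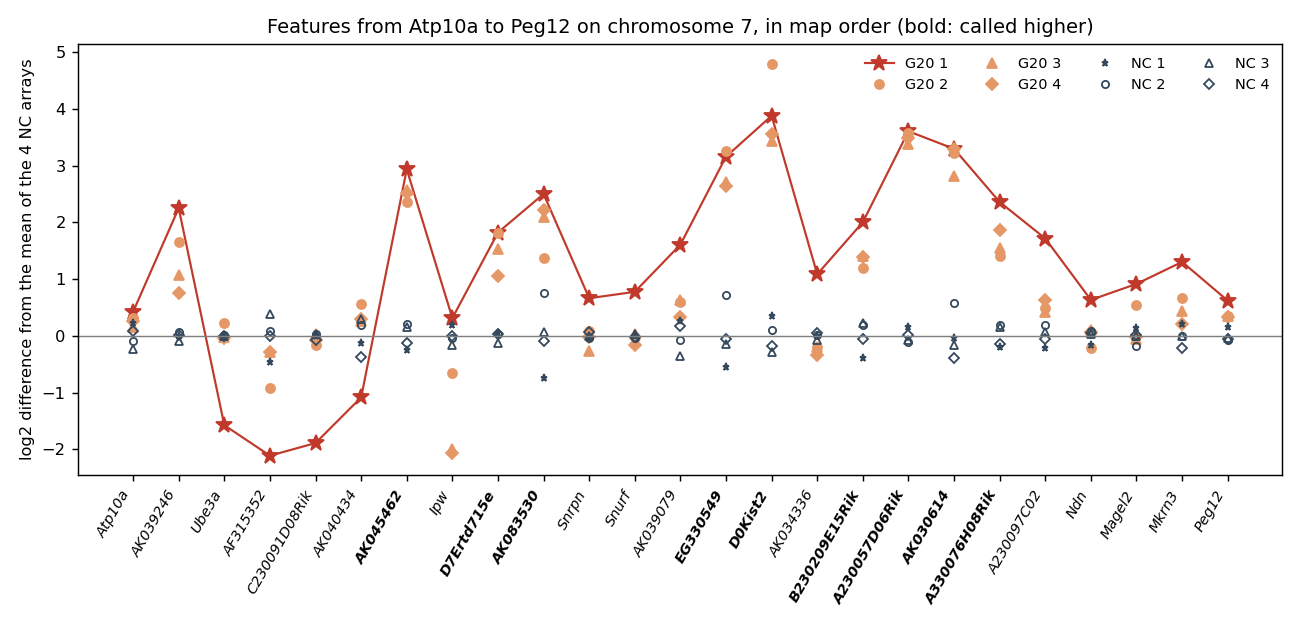
Difference of each array from the mean of the 4 NC arrays (log2) at 25 features of chromosome 7 in the order of their positions, G20 filled and NC open except for NC 1, a small star, with G20 array 1 joined by a line and called features in bold. G20 array 1 lies lowest at Ube3a and above the other arrays at Snrpn, Snurf and Ndn, while all G20 arrays are above NC at the bold features.

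G20 array 1 also stood apart at the Mest region of chromosome 6, the other of the 2 regions. Mest, a hydrolase-like gene of mesoderm read from the paternal copy, had 3.34 on this array, against 1.87 to 2.37 on the other G20 arrays and 2.19 to 2.43 in NC, 2.23-fold above the mean of the other G20 arrays. Copg2, a neighbour with a maternal bias in mouse brain, had 0.40 there, against 1.22 to 1.54 on the other G20 arrays and 0.95 to 1.42 in NC. That probe and one overlapping it (0.05, against 0.91 to 1.21 and 0.69 to 1.13) lie next to the Mest probe. Copg2 probes farther off did not place array 1 below both groups. They had −4.14, against −4.35 to −3.79 and −4.46 to −4.30, and −2.99, against −2.77 to −2.60 and −3.19 to −2.68. Klf14, a maternally read zinc-finger gene of the same cluster, had −7.15 on this array, −5.22 to −4.73 on the other G20 arrays and −5.61 to −5.12 in NC, and was well above background on 3 of the 4 G20 arrays. By contrast Plagl1, Zrsr1, Mcts2, Impact and Nap1l5 on G20 array 1 differed by 0.28 at most from the mean of the other G20 arrays. H13, the host of Mcts2, was low on it, at −1.40 against −0.39 to −0.29 on the other G20 arrays. So was Calcr, of the maternally expressed list, at −0.89 against −0.20 to 0.63, and −0.62 to −0.26 in NC. Over all 68 measured imprinted genes the 4 G20 arrays spanned more than 1 log2 unit in 12 (17.6%, against 4.25% of all genes), and the NC arrays in 0 (0%, against 4.08%). Array 1 did not set all of these spans: Peg10 and A930009L07Rik were highest on G20 array 2, at −4.50 and 3.08.

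In liver, the array with the same number showed higher values in some of these genes, although the labels do not say that it came from the same animal. Mest had 5.24 on liver G20 array 1, against 4.22 to 4.53 on the other G20 arrays and 4.44 to 4.70 in NC. Snrpn had −0.35 there, −2.12 to −1.80 on the other G20 arrays and −0.36 to 0.02 in NC. Snurf had −1.73, against −3.49 to −3.20 on the other G20 arrays and −1.67 to −1.44 in NC. For Snrpn and Snurf it was thus the other 3 liver G20 arrays that lay below NC. Ube3a, measured in liver by another probe, had 3.30 on array 1, 2.97 to 3.13 on the other G20 arrays and 2.77 to 3.16 in NC.

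On the X chromosome 4 of 652 genes were called (0.613%), 2 higher and 2 lower, and the median difference was 0.07. Both lower genes belong to the Xlr family of X-linked lymphocyte-regulated genes, some of which are read mainly from the maternal X in mouse brain. Xlr4b had −2.31, −1.43, −2.37 and −2.90 in G20 and 0.01, 0.26, −0.06 and 0.41 in NC, and fell by 2.41 ± 0.27 (limma adjusted p = 0.00431). The probe filed under Xlr3b, whose accession now belongs to Xlr3c, had −3.04, −2.15, −2.64 and −3.30 in G20 and −0.71, −0.45, −0.74 and −0.32 in NC. It fell by 2.23 ± 0.23 (limma adjusted p = 0.00299). Copies in this family are nearly identical, so which of them was read is uncertain, and after normexp neither was called (−1.65 and −1.34). Xlr itself, the other measured member, differed by 0.45 and was not called. Xist, whose RNA silences 1 X chromosome in females, had 3.74, 3.78, 3.51 and 3.75 in G20 and 3.23, 3.35, 3.37 and 3.36 in NC. Its difference of 0.37 ± 0.08 had a limma adjusted p of 0.0819 although the arrays did not overlap.

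Outside the imprinted and X-linked groups, the genes that rose were of mixed function, and some lay near other called genes, as given below. Mbl2, a plasma lectin that starts the complement cascade, had −3.69, −3.58, −4.21 and −4.13 in G20 and −7.38, −7.35, −5.99 and −7.53 in NC, where 1 of 4 arrays was well above background. The fitted difference was 3.16 ± 0.33 (limma adjusted p = 0.00304), measured against NC values that were mostly not above background, and after normexp it was 1.44 and not called (limma adjusted p = 0.557). Albumin (Alb), the main liver product, had −4.46 to −3.56 in G20 and −4.73 to −4.28 in NC, and alpha-fetoprotein (Afp) −4.05 to −2.87 in G20 and −4.17 to −3.89 in NC. Serpina1d, a liver protease inhibitor, had −2.80, −2.37, −2.94 and −2.51 in G20 and −5.09, −3.55, −5.20 and −5.15 in NC, and rose by 2.09 ± 0.35 (limma adjusted p = 0.0325). That call held in 2 of the 8 fits without an array, and after normexp the difference was 1.36. Of 10 measured liver products Mbl2 and Serpina1d were called higher and 0 lower, where 0.565% and 0.291% of all genes were, with a median of 0.36. In 4 of the 10 every G20 array lay above every NC array, and in 1 below, where 7.46% and 4.7% of all genes did so. Among the 4 were Cpb2 (1.63 ± 0.33, limma adjusted p = 0.0681) and Rbp4 (0.36 ± 0.09, limma adjusted p = 0.0984), which were not called. Of the 10 differences 8 were positive and 2 negative. The list's median level per array was −3.95 to −2.67 in G20 and −4.42 to −3.85 in NC, and its part in the result was not tested.

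Fam160b1 had 2.32, 2.39, 2.14 and 2.17 in G20 and 0.98, 0.96, 0.72 and 0.93 in NC, a rise of 1.35 ± 0.09 (limma adjusted p = 0.000327). Its 3 further probes differed by −0.12, 0.12 and −0.37, so the rise was seen at 1 of 4 probes. Htatip2, a short-chain dehydrogenase relative known as a metastasis suppressor, rose by 1.09 ± 0.08 (limma adjusted p = 0.000495), and its further probe by 1.13. Csad, which makes hypotaurine on the way to taurine, rose by 0.59 ± 0.07 (limma adjusted p = 0.00404), with 0.71 and 0.57 at its further probes.

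Fuz, a planar polarity protein needed for cilia, rose by 1.11 ± 0.11 (limma adjusted p = 0.00241), but a further probe differed by −0.47 and after normexp the gene differed by −0.06. The cap methyltransferase activator Ramac rose by 0.63 (limma adjusted p = 0.011) with 0.66 and −0.21 at further probes. Pax5, a transcription factor of B cells and of the midbrain boundary, rose by 0.63 (limma adjusted p = 0.00775). The zinc-finger gene Zfp740 rose by 0.67 and Aim1l by 0.71, with G20 arrays at 3.11 to 3.25 and −1.97 to −1.76 against NC arrays at 2.45 to 2.54 and −2.67 to −2.51.

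Among genes that fell, Gcnt1, which branches O-linked sugar chains, had −5.47, −6.86, −5.74 and −6.76 in G20 and −3.69, −3.38, −3.52 and −3.59 in NC. It was well above background on 2 of 4 G20 arrays, fell by 2.66 ± 0.30 (limma adjusted p = 0.00431), and after normexp differed by −0.15. Rgs10, a regulator of G-protein signalling that is abundant in microglia, had 0.29, 0.69, 0.69 and 0.58 in G20 and 1.95, 1.98, 1.95 and 1.87 in NC. It fell by 1.37 ± 0.10 (limma adjusted p = 0.000438), and by the same amount after normexp. Of 20 microglia and macrophage markers 0 were called, 14 differences were negative (median −0.13), and in 3 every G20 array lay below every NC array, where 4.7% of all genes did so. The complement genes C1qb and C1qa, 2 of these 3, averaged −2.08 and −0.65 in G20, and −1.56 and −0.17 in NC (limma adjusted p = 0.0944 and 0.102). The part of these cells in the fall of Rgs10 was not tested. Plekhm2, an adaptor that moves lysosomes, had −2.51, −2.75, −2.88 and −2.76 in G20 and −1.41, −1.29, −1.54 and −1.41 in NC, and fell by 1.31 ± 0.09 (limma adjusted p = 0.000438). Slc6a16, of the neurotransmitter transporter family, fell by 1.77 ± 0.19 (limma adjusted p = 0.00316). Snord33, a small nucleolar RNA gene, had −2.83, −2.73, −2.92 and −2.97 in G20 and −1.50, −1.95, −1.83 and −1.72 in NC, a fall of 1.11 ± 0.11 (limma adjusted p = 0.00187).

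Hps1, needed for lysosome-related organelles, fell by 1.36 ± 0.17 (limma adjusted p = 0.00907), with a further probe at −0.31. Uevld, a ubiquitin-conjugating enzyme variant, fell by 1.14 ± 0.11 (limma adjusted p = 0.00205), but its further probe differed by 0.01 ± 0.20. After normexp Slc6a16, Plekhm2, Snord33, Hps1 and Uevld differed by −0.35, −0.59, −0.54, −0.33 and −0.69, and none was called. Pik3ap1, an adaptor of B-cell signalling, the olfactory receptor Olfr1065 and pancreatic lipase (Pnlip) fell by 1.35, 1.22 and 1.08, and all 3 changed sign after normexp (0.26, 0.34 and 0.24). In G20, Pik3ap1 cleared the background on 2 arrays and Olfr1065 on 1. Of the clones without a gene symbol, 4933409K07Rik fell by 2.28 ± 0.15, with −3.38, −2.62, −3.20 and −3.17 in G20 and −0.88, −0.71, −0.78 and −0.90 in NC (limma adjusted p = 0.000327). AK038721 was not well above background on any G20 array, and was 5.73-fold lower against the dimmest measurable level. Its fitted difference was −2.76 ± 0.22 (limma adjusted p = 0.00083). LOC674214 and AK048939 fell by 1.34 and 1.27, and were well above background on 3 and 1 of the 4 G20 arrays. After normexp AK038721, LOC674214 and AK048939 differed by 0.01, 0.16 and 0.47.

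**Figure D4:**
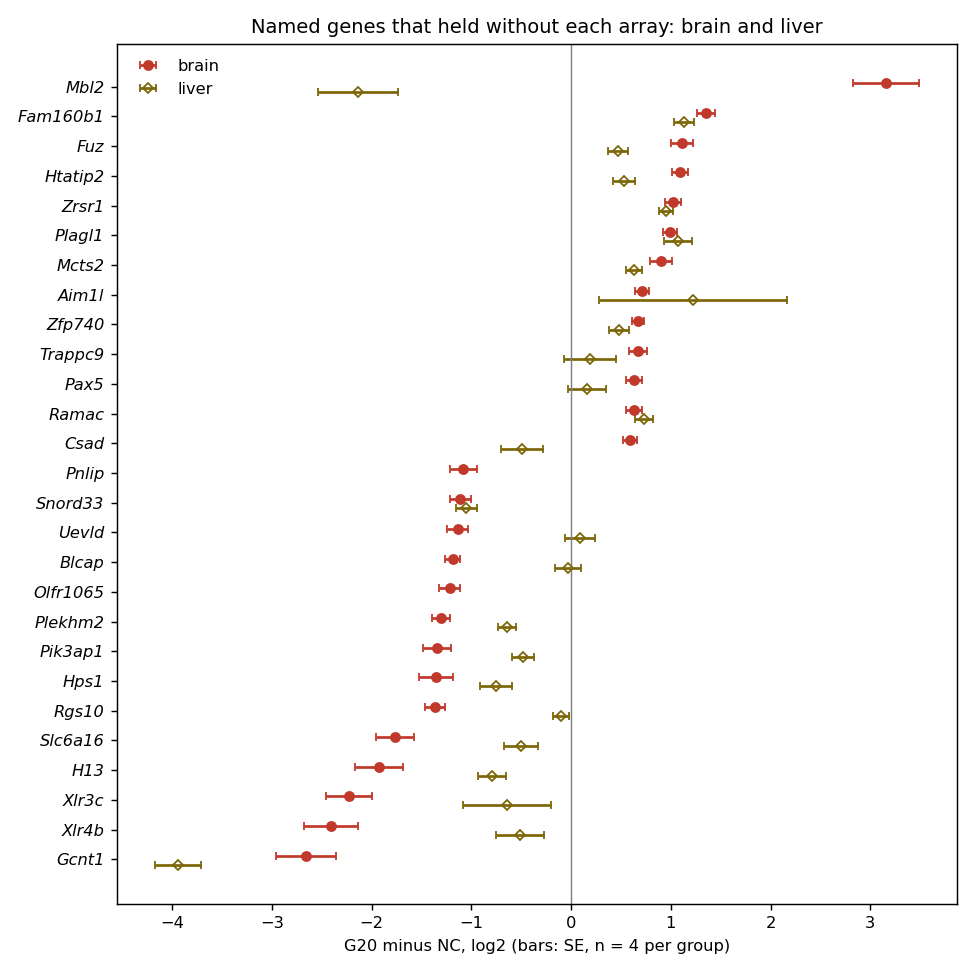
Difference between G20 and NC (log2, bars 1 SE, n = 4 per group) for 27 of the called genes that held in every fit without an array, in brain (filled circles) and liver (open diamonds, where measured), from the highest to the lowest brain difference. Plagl1, Zrsr1, Mcts2 and Gcnt1 lie on the same side of 0 in both tissues, and Mbl2 at 3.16 in brain and −2.14 in liver lies on opposite sides.

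Lists of cell type markers had few called members. Avp, the antidiuretic hormone of hypothalamic neurons, had −0.78, −0.65, −1.06 and −0.71 in G20 and 0.15, −0.04, 0.15 and 0.24 in NC, and fell by 0.92 ± 0.10 (limma adjusted p = 0.00457). It was the only 1 of 18 hypothalamus and neuropeptide genes called, while oxytocin (Oxt) differed by −0.71 (limma adjusted p = 0.142) and the lateral hypothalamic peptides Pmch and Hcrt by 0.56 and 0.54. In bulk tissue fewer cells of a type and less RNA per cell cannot be told apart. Mcpt4, a mast cell protease, fell by 2.52 (limma adjusted p = 0.0336), with −5.33, −6.04, −5.69 and −5.75 in G20 and −4.36, −2.46, −3.62 and −2.30 in NC. Its call held in 2 of the 8 fits without an array, 2 of its G20 values were not well above background, and after normexp the difference was −0.38. The mast cell genes Cpa3 and Cma1 differed by −1.11 and −1.0 with overlapping groups. Myh1, a fast muscle myosin, fell by 0.94 (limma adjusted p = 0.0257), the 1 call among 20 muscle genes. The call held in 2 of the 8 fits without an array, and after normexp the difference was 0.02.

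In erythroid genes 0 of 14 measured members were called, and all 14 differences were positive, with a median of 0.48. The heme enzyme Alas2 averaged 2.32 in G20 and 0.93 in NC, and the anion exchanger Slc4a1 −1.17 in G20 and −2.69 in NC. The alpha-globin gene Hba-a1 had 6.15, 6.66, 6.43 and 6.55 in G20 and 6.25, 4.88, 5.38 and 6.16 in NC. The list's median level was −0.39 to 0.18 in G20 and −1.31 to −0.30 in NC, so that the groups overlapped. Of 29 hypoxia-response genes 0 were called, 24 differences were positive and the median was 0.26. The glucose transporters Slc2a1 and Slc2a3 averaged 2.63 and 2.14 in G20, and 2.11 and 1.65 in NC (limma adjusted p = 0.13 and 0.0908). P4ha2, a collagen hydroxylase, differed by 0.76 ± 0.17 (limma adjusted p = 0.0856) with no overlap of the arrays.

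Choroid plexus genes had the lowest median of the lists with at least 8 measured members, −0.37 over 16, with 0 called. Of the 16 differences 15 were negative, and the median was below 0 in all 22 settings. Every G20 array lay below every NC array for Kl (−0.48, limma adjusted p = 0.069) and Calml4 (−0.54, limma adjusted p = 0.268). The 1 member with every G20 array above NC was Prlr (0.34, limma adjusted p = 0.203). On G20 array 2, transthyretin (Ttr), the main secreted protein of the tissue, had −4.12, against 0.11, 0.77 and 0.38 on the other G20 arrays. The ion channel subunit Kcne2 had −3.46 there and −0.56, 0.30 and −0.14 on the others, and the folate receptor Folr1 −2.92, against −0.67, 0.00 and −0.10. For glutamatergic cortex genes 0 of 22 were called, with a median of −0.18, and Slc17a7, their vesicular transporter, averaged −2.69 in G20 and −1.78 in NC (limma adjusted p = 0.0995).

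Clustered protocadherins, cell-surface proteins that give neurons their identity codes, had 1 of 23 called higher (0.565% of all genes) and a median of 0.23. Pcdhb17 had 0.93, 0.90, 0.97 and 0.74 in G20 and 0.53, 0.54, 0.44 and 0.44 in NC, and rose by 0.40 ± 0.07 (limma adjusted p = 0.0491, called in 0 of the 8 fits without an array). Pcdhb15, Pcdhb3 and Pcdhb22 differed by 0.35, 0.54 and 0.48 with adjusted p-values of 0.0517, 0.0602 and 0.0694 in limma. In 9 of the 23 all G20 arrays lay above all NC arrays, and in 1 below, where 7.46% and 4.7% of all genes did so. Genes for DNA methylation and chromatin had 1 call in 39, the histone demethylase Kdm4d (0.61 ± 0.10, limma adjusted p = 0.0291, called in 2 of the 8 fits without an array). Germline genes silenced by DNA methylation had 0 calls among 10 measured, with a median of 0.28.

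Single calls fell in several further lists. Slc7a5, a large amino acid transporter of the blood-brain barrier, fell by 0.51 ± 0.07 (limma adjusted p = 0.0134), with 0.88 to 1.13 in G20 and 1.48 to 1.51 in NC. The chemokine Ccl27a fell by 0.58 (limma adjusted p = 0.0247), Gpd1, a glycerol phosphate dehydrogenase, by 0.64 and the synaptic vesicle protein Syt4 by 0.45. Without an array in turn, Slc7a5 was called in 7 of the 8 fits, Ccl27a in 4, Gpd1 in 1 and Syt4 in 0, and the further Syt4 probe differed by 0.01. The retinoic acid receptor Rarg rose by 0.88 (limma adjusted p = 0.0371) and the telomere capping subunit Stn1 by 0.39. Rarg was called in 2 and Stn1 in 0 of those 8 fits, and their further probes differed by 0.34 and 0.10. Lists of basic cell functions lay near the median of all genes with 0 calls: 42 ribosomal protein genes (median 0.04), 42 genes of oxidative phosphorylation (0.06), 30 proteasome subunits (0.01) and 30 cell cycle genes (0.02). The general neuron markers also had 0 calls in 15.

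**Figure D5:**
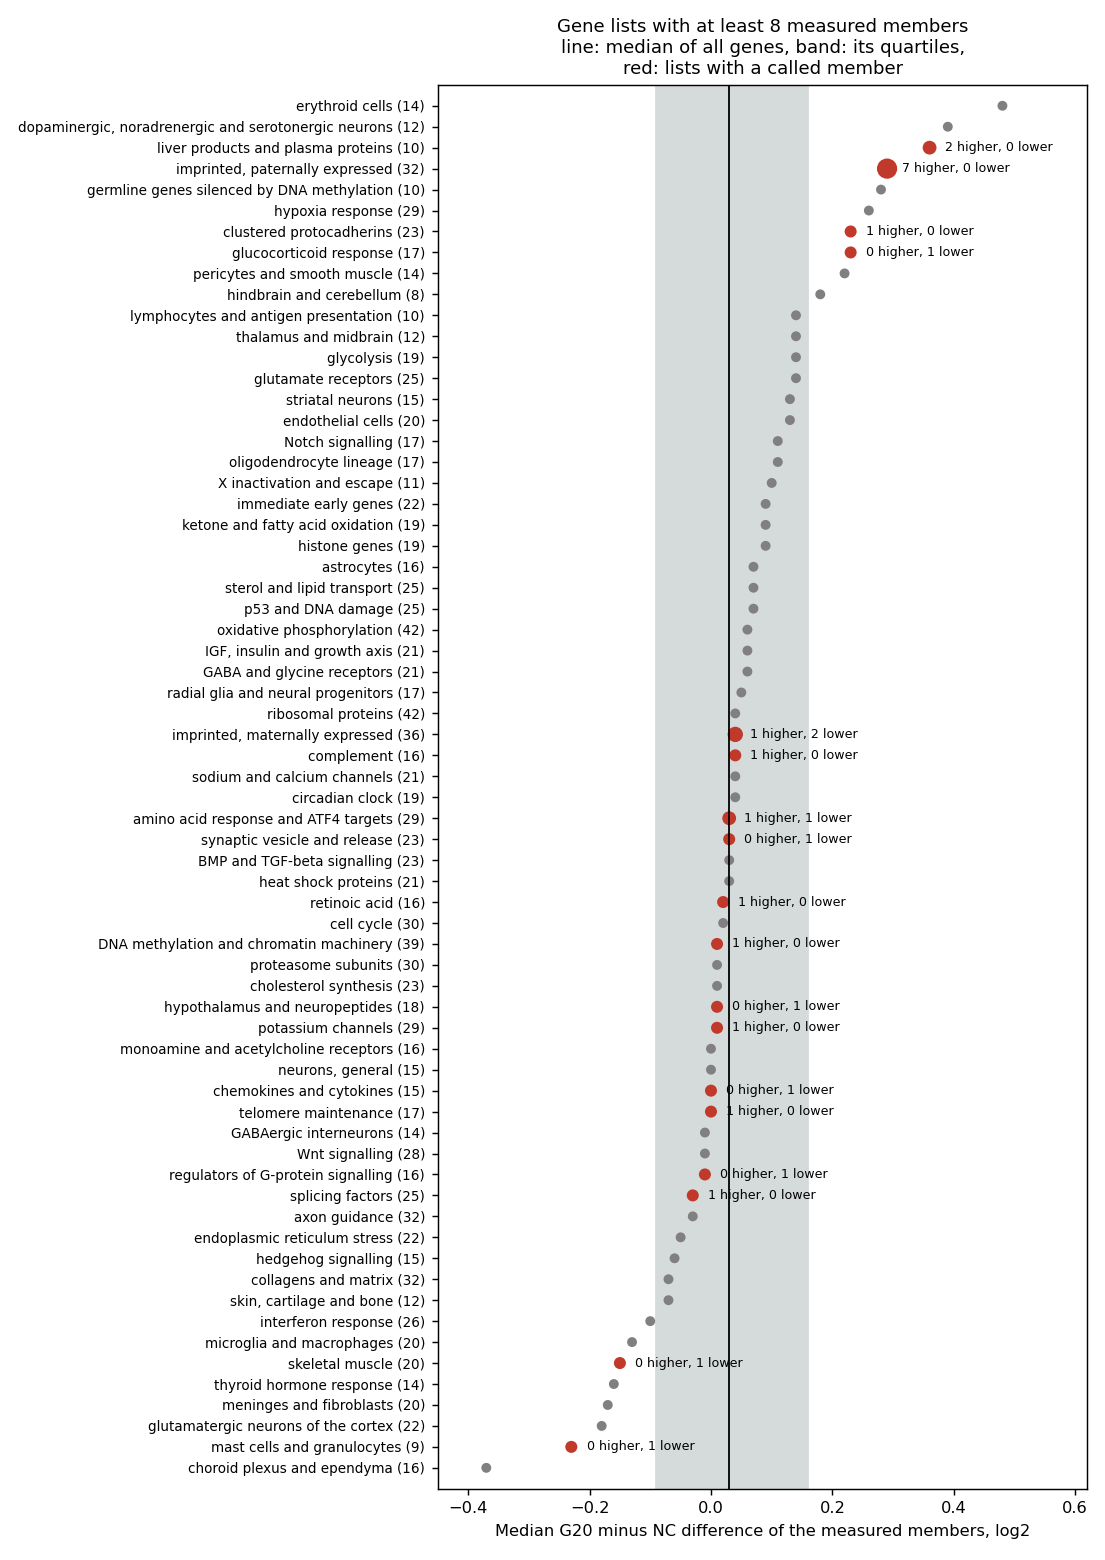
Median difference between G20 and NC brain (log2) of each gene list with at least 8 measured members (number in brackets), with the median of all 18220 genes as a line and its quartiles as a band, and lists with called members in red. Erythroid genes lie highest at 0.48 and choroid plexus genes lowest at −0.37, both with 0 calls. The list of paternally expressed genes at 0.29 has the most calls, 7 with Trappc9 included.

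Called genes lay near each other. Of the 156, 84 (53.8%) had another called gene within 1 Mb, against 13.4% of the genes that were not called, and 10 stretches with at least 3 calls each held 48 of them. Chromosome 7 had 28 calls in 1303 genes (2.15%), chromosome 18 had 11 in 508 (2.17%) and chromosome 14 had 13 in 635 (2.05%). The longest stretch, at chr14:3668387-6240418, had 11 of 13 tested features called, 10 higher and 1 lower. They carry names of predicted genes and clones, among them LOC675467, with 3.91, 3.71, 3.44 and 3.57 in G20 and 2.76, 2.42, 2.54 and 2.65 in NC, a rise of 1.07 ± 0.12 (limma adjusted p = 0.00376). Gm3696 and LOC554327 rose by 0.84 and 1.00, and NAP027406-1 fell by 0.77. Near-identical copies are common among such predicted genes, so the features may share RNA and are not independent. On chromosome 4, Fam219a, Ccl27a, 4933409K07Rik and LOC674214 lie within one stretch of 14 tested features, and all 4 fell. Csad, Zfp740 and Rarg were 3 of the 4 features tested at chr15:102005466-102063971. Fuz, Snord33, Slc6a16 and Uevld lay in a stretch of 76 features with 6 calls, at chr7:44765724-46792731. Pik3ap1 and Hps1 lay in one of 30 features with 5 calls, at chr19:41326896-43668578. Calls within a stretch may not be independent.

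Liver offers measurements that the brain comparison did not use, from other arrays of the same groups. Of the 103 genes higher in brain, 70 were measured in liver and 28 were called higher there (40%, against 4.56% of all liver genes called higher, 2.86% lower and 7.41% in either direction). These 28 were 3.76% of the genes called higher in liver. Among the 28 are LOC675467, LOC554327, 2610042L04Rik, LOC673676 and Gm3696 of the chromosome 14 stretch, which are not independent, so the share counts some RNA more than once. Agreement between the tissues does not tell strain alleles apart from cloning. Of the 53 lower genes, 38 were measured and 10 were called lower (26.3% of those measured and 2.15% of the lower liver calls), while 4 higher and 1 lower brain calls were called in the opposite direction. Plagl1 had 4.78, 4.95, 4.86 and 5.19 in G20 liver and 3.60, 3.89, 3.83 and 4.18 in NC liver, and rose by 1.07 ± 0.14 (limma adjusted p = 0.00548). Zrsr1, Mcts2 and Impact rose by 0.95, 0.63 and 1.15 in liver, and H13, at another probe, fell by 0.79. Blcap, by contrast, had 3.09, 2.85, 2.60 and 2.63 in G20 liver and 2.98, 2.77, 2.67 and 2.87 in NC liver, a difference of −0.03 (limma adjusted p = 0.9).

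Gcnt1 fell in liver as well, with −1.38, −1.81, −1.81 and −1.79 in G20 and 2.0, 2.61, 1.67 and 2.68 in NC, by 3.94 ± 0.23 (limma adjusted p = 0.000151). Rgs10 differed by −0.10 in liver (limma adjusted p = 0.505), and Xlr4b and Xlr3c by −0.51 and −0.64 (limma adjusted p = 0.217 and 0.394). Mbl2 had 2.99, 4.69, 5.03 and 4.37 in G20 liver and 6.48, 6.60, 6.54 and 6.02 in NC liver, and fell there by 2.14 ± 0.40 (limma adjusted p = 0.019). Of the chromosome 14 stretch, LOC675467 rose in liver by 2.54 (limma adjusted p = 0.00279) and Gm3696 by 1.85 (limma adjusted p = 0.00397). Differences between the tissues were not tested.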

How the data were processed

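Neonatal brain was measured on single-colour Agilent arrays, 4 for G20 and 4 for NC, with 4 liver arrays per group used for comparison. Per the file headers, the authors read the intensity of each spot in Agilent Feature Extraction 9.5.3.1 with background subtracted, and deposited it with no normalization between arrays, beside flags of another kind, 0 or 1, for spots well above background, saturated or outlying. RNA was taken with Trizol, cleaned on columns and labelled with Cy3 after linear amplification, per the labels. The deposited matrix of intensity values, with 34140 probes and 0 columns left unused, served only as an alternative.

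Here the processed signal of 43379 spots other than controls was put on the log2 scale minus the 75th percentile of its array, outlier spots were removed and spots of a probe averaged (41174 probes). Probes well above background on all 4 arrays of either group were kept, and a gene was its brightest probe (18220 genes in brain, 16319 in liver). Names came through the accession where the RefSeq gene list held it (23374 probes) and from the file otherwise. Positions are mm8 per the file headers. Groups were compared in R 4.3.3 (limma 3.58.1, and data.table at version 1.17.8) on the 8 G20 and NC arrays in a tissue, with moderated tests and Benjamini-Hochberg adjustment over all genes, called at an adjusted p under 0.05. The procedure was tested on simulated data.

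Named genes are up to 14 higher and 14 lower called genes with a symbol whose groups did not overlap and whose calls held without each array, 4 features per direction without a symbol under the same conditions, called list members, and up to 4 members per list described, of which 1 is not reported here. The members and lists were chosen with earlier results of these data known. Deviations of same-numbered G20 and NC arrays correlated at 0.153, 0.013, 0.0852 and −0.0183 in brain, against −0.157 to 0.106 for differently numbered arrays. The value for number 1 lies above that range, so pairing by number is not settled, and the main fit used no pairing. Alternatives changed the background correction, scaling, filter, probe choice, weights, variance model, block and arrays in the fit. The number of arrays limits the precision.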

Additional observations from a re-analysis of the deposited data

Results flagged for a closer look

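In 266 sets of 4 arrays, 22 had 1 array far from the other 3 by Dixon's criterion, which chance alone gives in about 1 of 20 sets, or 13.3 here. Several were G20 array 1: H13 at −1.40 (others −0.39 to −0.29), Ube3a at 1.61 (others 3.15 to 3.41), C230091D08Rik at −2.34 (others −0.62 to −0.41), AK034336 at −3.07 (others −4.50 to −4.35), A230097C02 at −0.44 (others −1.73 to −1.52) and Peg12 at 0.28 (others 0.00 to 0.01). For G20 array 2 they were Rarg at −4.26 (others −3.77 to −3.74), the retroelement-derived imprinted gene Peg10 at −4.50 (others −5.63 to −5.47), Usp29 at 3.58 (others 2.88 to 2.89), the median of the choroid plexus list at −2.74 and that of glutamatergic neurons of the cortex at 1.82. For G20 array 3 they were Myh1 at −3.89, AK030614 at −2.22 and Xist at 3.51.

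Among NC arrays, array 1 was apart for Xist at 3.23 (others 3.35 to 3.37), the imprinted non-coding RNA Rian at 2.64 (others 3.31 to 3.44) and the median of the paternally expressed list at 2.23 (others 2.03 to 2.04). Array 2 was apart for Serpina1d at −3.55 (others −5.20 to −5.09). Array 3 was apart for Mbl2 at −5.99 (others −7.53 to −7.35), AK038721 at −5.37, D7Ertd715e at −1.28 and the lactonase gene Pon3 at −3.24.

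In 38 named genes measured in both tissues, 2 had every G20 array above every NC array in brain and below every NC array in liver. Mbl2 differed by −2.14 in liver and 3.16 in brain, and Csad by −0.49 in liver and 0.59 in brain. These differences between tissues were not tested.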

How the results depend on the processing

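The count of 156 brain calls was 10 after normexp (all 10 among the 156, with all genes shifted to a median of 0.10). It was 82 without the filter on dim probes (75 shared) and 324 with all 12 brain arrays in the fit (134 shared). With the replicate number as a block it was 73 (61 shared), and whether the numbers pair the arrays is not settled. Leaving out 1 array gave 73 to 236 calls, of which 69 to 125 were among the 156. Calls split into 89 higher and 63 lower when arrays were centred on the median, and into 96 and 65 after quantile normalization. The 1210 liver calls became 10357 after normexp, 784 without the filter, 3402 with array weights, 666 with the replicate block and 468 to 1262 without 1 array, and median scaling gave 456 higher and 730 lower. Members of the paternally expressed list called higher numbered 7, Trappc9 among them. The number was 1 after normexp, 4 without the filter, 2 with the replicate block and 4 to 6 without 1 array. The features higher between Ube3a and Ndn numbered 9, against 4 after normexp and 8 to 9 without 1 array, and the X-linked genes called lower 2, against 0 after normexp and 2 in each fit without 1 array. Over 53 named genes and 22 settings, 949 of 1152 values had the same sign and the same side of the threshold, 192 had the same sign and lost the call, 2 gained it and 9 changed sign. The sign changed after normexp for Fuz (−0.06), Pik3ap1 (0.26), Olfr1065 (0.34), Pnlip (0.24), Myh1 (0.02), AK038721 (0.01), LOC674214 (0.16) and AK048939 (0.47), and with averaged probes for Trappc9 (−0.29). The cause was not tested. List medians ranged over the settings from 0.23 to 0.34 for paternally expressed genes, 0.35 to 0.62 for erythroid genes and −0.48 to −0.07 for choroid plexus genes. Genes that are dim in 1 group lie near background, which limits their fold changes, and 10 higher and 8 lower calls had such a group.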
